A study of Homo sapiens with 6 samples.

Results

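Aminoacyl-tRNA synthetases join each amino acid to its matching tRNA, the step that fixes which amino acid a codon brings to the ribosome. Human cells make proteins in the cytosol and inside mitochondria, and the nuclear genome encodes a largely separate set of synthetases for each place. The members described here are the genes of the deposited table whose symbols follow the naming pattern of this family and whose mean was at least 0.5 CPM (read counts scaled to a common total per sample) over the 6 samples. There were 37 members of 29744 genes in the table, and 13373 genes in all reached that mean. All 37 genes that matched the pattern passed, and the lowest of them, *PARS2*, averaged 5.69 CPM, so no gene lay close to the limit. By symbol, 17 were mitochondrial (ending in 2) and 20 were cytosolic. The table uses older symbols without a final 1 (*MARS* for *MARS1*), which are kept here. *GARS* and *KARS*, counted as cytosolic by this rule, each encode enzymes for both compartments, and *QARS* has no mitochondrial partner.

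RNA was sequenced from LNCaP cells, a human prostate cancer line that responds to androgen. Cells had been given 250 nM CDKI-73 for 4 h (3 replicates) or the vehicle DMSO (3 replicates). CDKI-73 inhibits CDK9, a kinase that RNA polymerase II needs to leave its pause near the start of a gene. All samples came from 1 cell line in serum-containing medium, so they share its genotype, and the comparison asks what 4 h with CDKI-73 does to RNA levels. The paper reports weaker inhibition of CDK7, CDK2 and CDK1 by this compound in kinase assays, and a lower CDK7 readout in LNCaP cells. Which of these kinases lay behind a given change in RNA was not tested. The titles of the vehicle samples also contain the name of the compound, and the groups follow the treatment label.

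Counted reads, inferred from the step between the CPM values, were 46.1 to 52.0 M in CDKI-73 samples and 52.9 to 60.9 M in DMSO samples. CDKI-73 replicate 3 stood apart from the others of its group, with a median absolute gap of 0.149 to their mean on the log2 scale over all genes tested, against 0.0517 to 0.0999 for the other 5 libraries. It held the lowest value of its group for 20 of the 37 synthetases and the highest for 13. Uneven counts were also seen with DMSO, where replicate 3 was highest for 19 and replicate 2 lowest for 17. The 8 LNCaP markers summed to 6862 to 7031 CPM with CDKI-73 and to 8243 to 8500 CPM with DMSO. Of 12 markers of immune, stromal, endothelial and basal cells, none exceeded 14.9 CPM in any sample. The mitochondrial rRNA *RNR2* took 6.96% to 7.44% of counted reads with CDKI-73, against 4.46% to 4.72% with DMSO, and its part in the CPM of other genes was not tested. In bulk RNA a CPM is a share of the sample's reads, so fewer cells and less RNA per cell cannot be told apart, and a fall in total mRNA is not seen.

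Tests were run with limma on log2(CPM + 0.1), and p-values were adjusted (Benjamini-Hochberg) over all 13373 genes. A gene passed if its adjusted p was at most 0.05, and was called at 2-fold if it also changed by at least that much. The median log2 fold change of all genes tested was −0.18, CDKI-73 over DMSO, and other scalings of the samples moved the median of all genes by between −0.40 (3 reference genes) and 0.27 (upper quartile). All but *MARS2*, *PARS2*, *YARS2* and *VARS* changed by less than the larger of these shifts. Directions are therefore given for the CPM as deposited.

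Most synthetase mRNAs moved little after 4 h with CDKI-73, and 2 mitochondrial ones fell far more than the rest. *MARS2* fell 14-fold and *PARS2* 10.1-fold on the log2(CPM + 0.1) scale, the only members called at 2-fold (2 of 37, 5.41%), where 22.3% of all genes tested were called lower at 2-fold. No member was called higher at 2-fold, with or without the adjustment of p from limma, where 1.11% of all genes were. Without the fold limit, 7 of the 37 were lower (18.9%), where 48.2% of all genes tested were lower. The 14 higher members made up 37.8%, where 24.2% of all genes were higher, and 16 members did not pass. The median log2 fold change of the 37 was 0.08, and 31 of them lay above the median of all genes. The 3 CDKI-73 values lay wholly below the 3 DMSO values in 9 members, where 50.0% of all genes tested had this order, and wholly above in 16 members, where 25.9% did.

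By compartment, 4 of 17 mitochondrial synthetases were lower and 6 were higher, and 3 of 20 cytosolic synthetases were lower and 8 were higher. The median log2 fold change was 0.06 for the mitochondrial and 0.08 for the cytosolic members. The range was −3.80 to 0.35 among mitochondrial members and −0.39 to 0.51 among cytosolic members. The count of each direction depended on scaling. By the trimmed mean of M-values, 3 mitochondrial members were lower and 11 higher, and 1 cytosolic member was lower and 17 higher. Of all 13373 genes tested, 5161 were lower and 5362 higher by that scaling. After scaling to the reference genes *GAPDH*, *HPRT1* and *ACTB*, 13 mitochondrial and 17 cytosolic members were lower, and the rest did not pass. Most genes were lower by that scaling, 9882 of the 13373 tested, and 395 were higher.

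**Figure D1:**
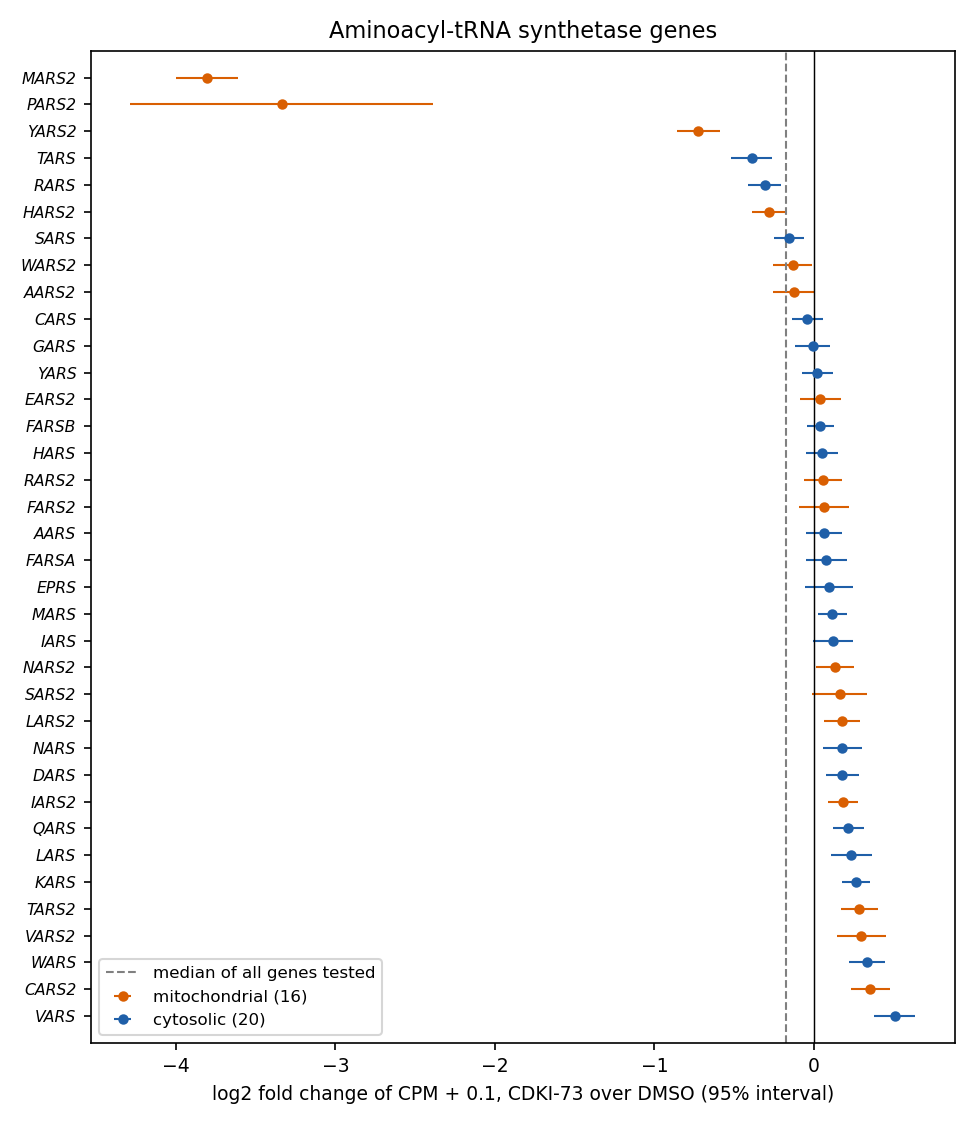
Log2 fold change of CPM + 0.1, CDKI-73 over DMSO, for 36 of the synthetase genes (points) with the 95% interval from limma (bars), mitochondrial in orange and cytosolic in blue. A dashed line marks the median over all genes tested (−0.18). *MARS2* (−3.80) and *PARS2* (−3.34) stand far from the others, which lie between −0.72 and 0.51.

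*MARS2* encodes the mitochondrial methionyl-tRNA synthetase, which charges the tRNA used both to start and to extend mitochondrial proteins. It had 2.67, 2.70 and 2.26 CPM with CDKI-73, against 37.9, 36.6 and 35.7 CPM with DMSO. The groups were far apart and the 3 values within each were close. Its log2 fold change was −3.80 (standard error, SE, 0.085, limma adjusted p = 2.1e-08), and only 91 of the genes tested (0.68%) had a lower one. The lowest of these values rests on about 104 reads, against about 1887 in the lowest DMSO sample. The gene lies at chr2:197705369-197708395 of hg38 on the plus strand, and its canonical transcript is a single exon of 3027 bases. A long non-coding RNA gene on the same strand overlaps it.

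*PARS2*, the mitochondrial prolyl-tRNA synthetase gene, had 1.54, 1.31 and 0.37 CPM with CDKI-73, against 10.5, 10.1 and 10.4 CPM with DMSO. All CDKI-73 samples were low, and replicate 3 was well below the other 2, at about 17 reads. The log2 fold change was −3.34 (SE 0.41, limma adjusted p = 1.2e-04). It was −2.77 without CDKI-73 replicate 3 and −2.50 with a pseudocount of 1 CPM, so the size of the fall is less certain than for *MARS2*. The gene lies at chr1:54756898-54764523 on the minus strand, with 2 exons, and all of its coding sequence is in 1 of them.

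*YARS2*, the mitochondrial tyrosyl-tRNA synthetase gene, came next. It had 22.1, 23.6 and 24.0 CPM with CDKI-73, against 40.0, 36.6 and 38.8 CPM with DMSO, a log2 fold change of −0.72 (SE 0.059, limma adjusted p = 8.8e-06). The groups did not overlap, and the fall was smaller than 2-fold, although it reached −1.13 after scaling to the reference genes. The gene lies at chr12:32727490-32755897 on the minus strand and has 5 coding exons. *MARS2*, *PARS2* and *YARS2* were lower, and passed in limma, under each of the 17 alternative settings.

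The promoters of these 3 genes are shown because they are the members with the largest falls. Each runs from 250 bases before to 50 bases after the transcription start in RefSeq (GRCh38.p14), 5′ to 3′ on the gene's strand, at chr2:197705119-197705418, chr1:54764474-54764773 and chr12:32755848-32756147. Capitals mark matches on either strand to 8 short motifs, namely the E-box CACGTG, the C/EBP-ATF response element TGATGNAA, the CCAAT box, the GC box GGGCGG, the ETS site CCGGAAG, the TATA box TATAAA, and 10-letter NRF1 and YY1 sites. Neighbouring matches can run together.
MARS2: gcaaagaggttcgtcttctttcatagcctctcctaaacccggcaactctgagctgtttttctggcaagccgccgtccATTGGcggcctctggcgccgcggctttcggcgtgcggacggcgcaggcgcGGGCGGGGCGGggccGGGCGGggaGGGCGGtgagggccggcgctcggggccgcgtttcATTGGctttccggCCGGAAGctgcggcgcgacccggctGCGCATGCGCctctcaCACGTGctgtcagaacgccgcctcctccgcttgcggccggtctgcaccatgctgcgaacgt
PARS2: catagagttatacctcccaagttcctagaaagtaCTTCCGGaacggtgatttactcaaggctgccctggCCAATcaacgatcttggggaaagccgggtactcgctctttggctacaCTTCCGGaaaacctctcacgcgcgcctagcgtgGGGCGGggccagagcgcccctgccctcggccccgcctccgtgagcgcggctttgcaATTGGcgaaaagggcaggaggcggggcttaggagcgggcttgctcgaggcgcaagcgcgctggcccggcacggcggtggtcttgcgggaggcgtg
YARS2: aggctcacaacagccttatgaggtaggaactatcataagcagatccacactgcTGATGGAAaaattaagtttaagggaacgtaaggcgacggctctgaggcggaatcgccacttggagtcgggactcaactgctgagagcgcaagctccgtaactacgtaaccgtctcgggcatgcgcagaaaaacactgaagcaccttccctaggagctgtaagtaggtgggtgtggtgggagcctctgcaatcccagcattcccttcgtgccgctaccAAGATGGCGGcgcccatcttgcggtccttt
The *MARS2* promoter holds 4 GC boxes close together, a pair of CCAAT boxes, and single ETS, NRF1 and E-box matches. NRF1 is an activator of many nuclear genes for mitochondrial proteins. Of the 30 members with a RefSeq promoter, *MARS2* alone held that motif (3.33%). It was found in 1.36% of all RefSeq promoters and in 2.38% of those of genes tested, so the share of members was near that of genes tested. The *PARS2* promoter has a pair of ETS matches, a pair of CCAAT boxes and a GC box, and that of *YARS2* has a C/EBP-ATF element and, just after its start, a YY1 match. These are matches of letters, and no binding was measured in the data used here.

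**Figure D2:**
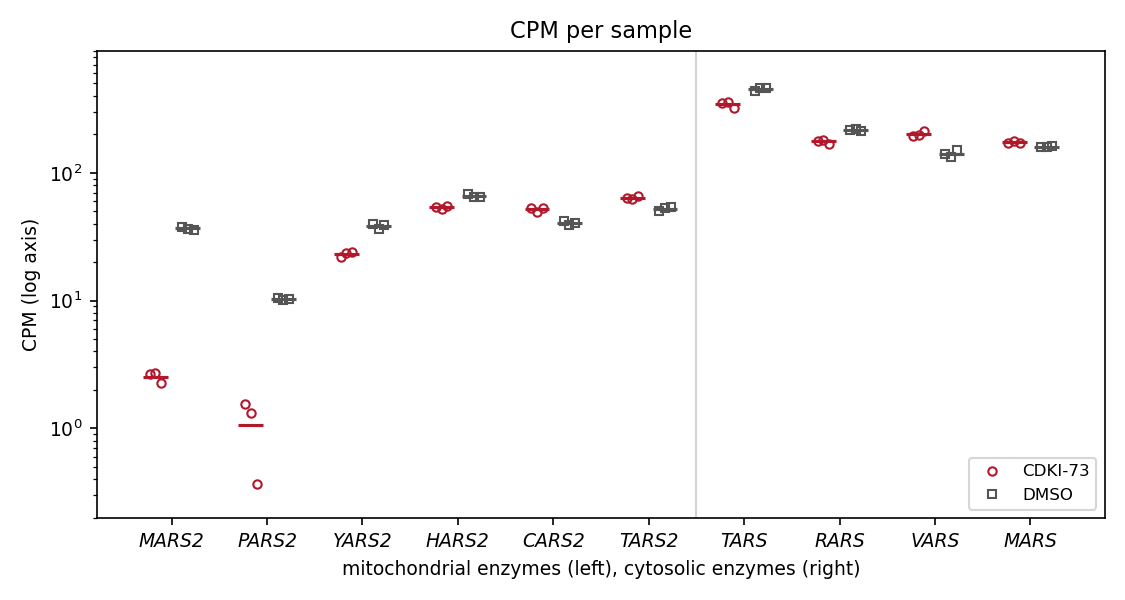
CPM of 10 synthetase genes in each sample on a log axis, CDKI-73 (circles) left of DMSO (squares) for each gene, with horizontal bars at the group means (n = 3 each). *MARS2* and *PARS2* are separated by about an order of magnitude, and in the other 8 genes the groups differ by less than 2-fold.

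The *MARS2* and *PARS2* genes share a feature that the naming rule did not use. They are the only 2 members whose coding sequence lies in 1 exon, and the other 35 have between 5 (*YARS2*) and 33 coding exons in the canonical GENCODE transcript. The median was 15 coding exons for mitochondrial and 17 for cytosolic members. None of those 35 genes changed by 2-fold in the CPM as deposited, with or without the adjustment of p from limma. The lowest log2 fold change among them was −0.72, that of *YARS2*, which was also the next in exon number. *WARS2* and *FARS2*, with 6 coding exons each, had log2 fold changes of −0.13 and 0.06 and did not pass.

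Over all 11867 protein-coding genes tested with a canonical transcript, 55.9% of the 624 with 1 coding exon were called lower at 2-fold, with a median log2 fold change of −1.25. The share was 32.7% of 2978 genes with 2 to 5 coding exons, 18.8% of 3426 with 6 to 10, 16.8% of 3281 with 11 to 20 and 12.5% of 1558 with more than 20. Falls as deep as 8-fold were seen in 16.2% of the genes with 1 coding exon and in 2.73% of all. So *MARS2* and *PARS2* lay below the lower quartile (−2.51) of the genes built like them. Across the 37 members, Spearman's rank correlation between coding exons and log2 fold change was 0.45, and 0.35 over the 35 without *MARS2* and *PARS2*. The same measure for the length of the gene on the chromosome was 0.15, and −0.01 without those genes. For the mean CPM it was 0.20, and 0.07 without them, and for the spliced length 0.17 both times. These are descriptions across genes, which are not independent replicates. Whether exon number had a part in the falls was not tested.

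**Figure D3:**
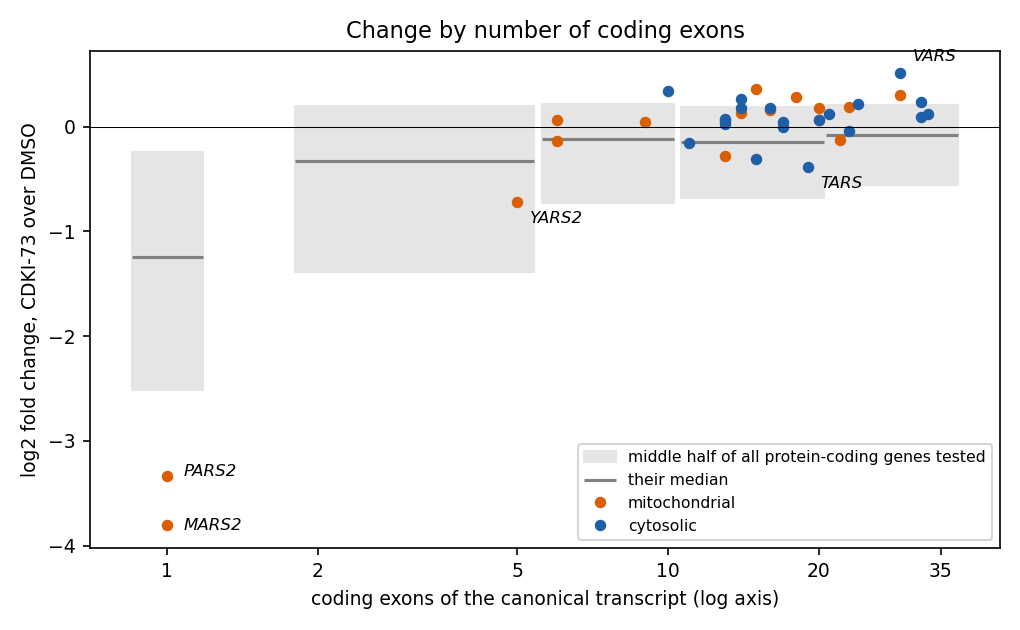
Log2 fold change (CDKI-73 over DMSO) of 36 synthetase genes against the number of coding exons of the canonical transcript on a log axis, with the quartiles (edges of grey boxes) and median (grey lines) of all protein-coding genes tested in each exon range. *MARS2* and *PARS2* lie alone at 1 coding exon, where the median of all such genes is −1.25.

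Of the other mitochondrial enzymes, only *HARS2*, for histidine, was also lower. It had 54.4, 52.4 and 54.9 CPM with CDKI-73, against 67.7, 64.2 and 65.0 CPM with DMSO, a log2 fold change of −0.28 (limma adjusted p = 6.5e-04) that stayed negative under every setting but did not pass by the trimmed mean of M-values, the median of gene ratios or the upper quartile. It starts 107 bases from *HARS*, its cytosolic counterpart, on the opposite strand, and the genes overlap there. *HARS* had 122, 119.9 and 119.9 CPM with CDKI-73, against 113, 117 and 120.0 CPM with DMSO (log2 fold change 0.05, limma adjusted p = 0.31). The CDKI-73 and DMSO samples did not overlap in *HARS2* and overlapped in *HARS*. Reads from the stretch where they overlap can be told apart only by strand. The paper describes a stranded protocol, but which strand was counted is not stated in the sources used here.

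Mitochondrial members that were higher included *CARS2*, *VARS2*, *TARS2*, *IARS2* and *LARS2*, each of which turned negative after scaling to the reference genes. *CARS2*, for cysteine, had 52.6, 49.1 and 53.2 CPM with CDKI-73, against 41.6, 39.1 and 40.5 CPM with DMSO (log2 fold change 0.35, SE 0.053, limma adjusted p = 3.9e-04). *VARS2*, for valine, had 47.4, 49.9 and 52.8 CPM, against 43.5, 38.1 and 40.5 CPM with DMSO (0.30). In both the groups did not overlap. *TARS2*, for threonine, had 63.3, 62.4 and 65.7 CPM, against 49.8, 53.3 and 54.0 CPM with DMSO (0.28). *IARS2*, for isoleucine and the most abundant mitochondrial member, had 392, 404 and 398 CPM, against 361, 351 and 341 CPM with DMSO (0.18), and *LARS2*, for leucine, had a log2 fold change of 0.18 (limma adjusted p = 0.012, but 0.052 without CDKI-73 replicate 1 and 0.059 without DMSO replicate 2). *WARS2*, for tryptophan, had 34.4, 34.2 and 32.3 CPM with CDKI-73, against 36.0, 36.1 and 38.5 CPM with DMSO (−0.13), and did not pass although the groups did not overlap. The other 6 that did not pass were *AARS2* (−0.13), *EARS2* (0.04), *RARS2* (0.06), *FARS2* (0.06), *NARS2* (0.13, but passing without CDKI-73 replicate 1 at 0.16) and *SARS2* (0.16, but passing without CDKI-73 replicate 2 at 0.22).

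Among cytosolic enzymes *VARS*, the valyl-tRNA synthetase gene, had the largest rise, with 195, 197 and 211 CPM with CDKI-73, against 139.9, 134 and 150.4 CPM with DMSO. Its log2 fold change was 0.51 (SE 0.056, limma adjusted p = 6.1e-05), and it was the only member whose value stayed positive under all 17 alternative settings, down to 0.10 (limma adjusted p = 0.17) after scaling to the reference genes. *WARS*, for tryptophan, had 179.7, 169 and 165 CPM, against 133, 133 and 141 CPM with DMSO (0.34), and *KARS*, for lysine, had 267, 271 and 277 CPM, against 228, 226 and 226 CPM with DMSO (0.26). The groups did not overlap in any of these. *LARS*, for leucine, had 334, 332 and 295 CPM with CDKI-73, against 267, 275 and 273 CPM with DMSO (0.23). *QARS*, for glutamine, had 159, 158 and 161 CPM, against 138, 132 and 141 CPM with DMSO (0.22). *DARS* (0.18), *NARS* (0.18) and *MARS* (0.11) were also higher, and all 8 except *VARS* turned negative after scaling to the reference genes. *MARS*, the cytosolic partner of *MARS2*, had 171, 177 and 171 CPM with CDKI-73, against 159, 158 and 162 CPM with DMSO. Its rise (limma adjusted p = 0.028) did not pass without any one of 5 of the 6 samples, with adjusted p of 0.053 to 0.10 (0.014 without CDKI-73 replicate 3). *NARS* did not pass without CDKI-73 replicate 1 (limma adjusted p = 0.060), CDKI-73 replicate 2 (0.053) or DMSO replicate 1 (0.051). *MARS* overlaps *DDIT3* on the opposite strand.

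The 3 cytosolic members that were lower were *TARS*, *RARS* and *SARS*. *TARS*, for threonine, had 354, 359 and 319 CPM with CDKI-73, against 434, 456 and 461 CPM with DMSO (log2 fold change −0.39, SE 0.056, limma adjusted p = 3.1e-04). *RARS*, for arginine, had 178, 181 and 168 CPM, against 217, 222 and 213 CPM with DMSO (−0.31). *SARS*, for serine, had 185, 182 and 176 CPM, against 199.99, 202 and 202 CPM with DMSO (−0.16), and its value turned positive by the trimmed mean of M-values, the median of gene ratios and the upper quartile. In all 3 the groups did not overlap. *TARS* and *RARS* stayed negative under every setting, but *TARS* did not pass by the upper quartile, and *RARS* did not pass by the trimmed mean of M-values or the upper quartile. The 9 that did not pass ranged from −0.04 (*CARS*) to 0.12 (*IARS*). *CARS*, for cysteine, had 64.1, 63.1 and 63.4 CPM with CDKI-73, against 64.0, 65.8 and 66.5 CPM with DMSO, and *GARS*, for glycine, had 322, 326 and 301 CPM, against 308, 321 and 325 CPM with DMSO. The groups overlapped in both. *EPRS*, the most abundant member, had 704, 734 and 619.6 CPM with CDKI-73, against 628, 643 and 654 CPM with DMSO. Its groups overlapped through CDKI-73 replicate 3, and without that library it passed at a log2 fold change of 0.16 (limma adjusted p = 0.0035), as did *IARS* at 0.18 (limma adjusted p = 0.0014).

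The promoters of *TARS*, the cytosolic member with the largest fall, and of *WARS*, the cytosolic member with the largest rise among those matched to a RefSeq promoter, are shown with the same marking. They lie at chr5:33440715-33441014 and chr14:100376278-100376577.
TARS: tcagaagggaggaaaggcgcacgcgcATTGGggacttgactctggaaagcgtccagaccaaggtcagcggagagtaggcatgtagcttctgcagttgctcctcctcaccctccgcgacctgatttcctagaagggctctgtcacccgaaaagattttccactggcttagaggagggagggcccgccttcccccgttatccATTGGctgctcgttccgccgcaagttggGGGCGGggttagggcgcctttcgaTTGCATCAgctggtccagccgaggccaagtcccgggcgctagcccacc
WARS: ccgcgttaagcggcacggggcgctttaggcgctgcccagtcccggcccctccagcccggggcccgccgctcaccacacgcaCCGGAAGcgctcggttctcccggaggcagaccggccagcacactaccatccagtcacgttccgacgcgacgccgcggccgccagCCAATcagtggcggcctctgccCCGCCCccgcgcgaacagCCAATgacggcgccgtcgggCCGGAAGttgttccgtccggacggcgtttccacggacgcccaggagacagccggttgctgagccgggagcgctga
The *TARS* promoter holds a C/EBP-ATF response element just after its start, read on the opposite strand, which that of *WARS* lacks. Such elements bind ATF4, the transcription factor that raises amino acid synthesis, transport and tRNA charging genes when amino acids run short.

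Of the 30 members with a RefSeq promoter, 7 held the motif TGATGNAA on either strand (23.3%), where 3.67% of all 27305 RefSeq promoters of that length and 1.60% of the 10077 of genes tested held it. They were 1 of 14 mitochondrial members (*YARS2*) and 6 of 16 cytosolic members. The matches are shown within 30 bases, on the strand that reads TGATGNAA, with the motif in capitals and the genes ordered by log2 fold change.
YARS2: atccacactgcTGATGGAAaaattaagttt
TARS: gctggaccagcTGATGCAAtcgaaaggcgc
CARS: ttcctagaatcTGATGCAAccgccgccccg
AARS: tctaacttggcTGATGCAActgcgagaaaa
MARS: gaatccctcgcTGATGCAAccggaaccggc
IARS: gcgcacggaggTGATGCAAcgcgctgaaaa
NARS: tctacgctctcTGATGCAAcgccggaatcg
The 6 cytosolic matches read TGATGCAA, and the *YARS2* match reads TGATGGAA. Those of *CARS*, *MARS*, *IARS*, *NARS* and *TARS* begin within 14 bases of the start site, and those of *AARS* and *YARS2* lie 187 and 197 bases before it. The 7 genes did not move in 1 direction. *YARS2* (−0.72) and *TARS* (−0.39) were lower, *MARS* (0.11) and *NARS* (0.18) were higher, and *CARS* (−0.04), *AARS* (0.06) and *IARS* (0.12) did not pass. The ETS site was found in 14 of 30 members (46.7%), 6 of 14 mitochondrial and 8 of 16 cytosolic, where 10.7% of all RefSeq promoters and 19.9% of those of genes tested held it. The GC box was found in 70.0% of members, in 44.6% of all RefSeq promoters and in 70.6% of those of genes tested. For the CCAAT box these shares were 53.3%, 35.7% and 37.4%. They were 13.3%, 7.43% and 10.4% for the E-box, and 13.3%, 1.28% and 2.98% for the YY1 site.

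For 17 amino acids (glutamate and proline sharing *EPRS*) the mitochondrial and cytosolic genes could be set against each other within each sample, a ratio that hardly depends on how the samples are scaled. The ratio was lower with CDKI-73 for 10 amino acids and higher for 7, with a median change of −0.05 on the log2 scale. In an exact two-sided permutation test, 3 samples against 3 cannot go below p = 0.1. This value was reached by 12 of the 17, 7 with a lower and 5 with a higher ratio, and adjusted over the 17 it was 0.142.

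The largest changes were those of methionine and proline. *MARS2* stood at 0.0156, 0.0153 and 0.0132 of *MARS* with CDKI-73, against 0.239, 0.231 and 0.221 with DMSO, a change of −3.92 (SE 0.079). *PARS2* to *EPRS* changed by −3.43 (SE 0.50), and *YARS2* to *YARS* by −0.75 (SE 0.079). For tryptophan the ratio of *WARS2* to *WARS* was 0.191, 0.203 and 0.195 with CDKI-73, against 0.270, 0.272 and 0.274 with DMSO. The opposite order held for threonine, with *TARS2* at 0.179, 0.174 and 0.206 of *TARS* with CDKI-73, against 0.115, 0.117 and 0.117 with DMSO, a change of 0.67 (SE 0.076). The ratios for cysteine, arginine and serine were also higher, by 0.40, 0.37 and 0.32. In all of these pairs the groups did not overlap.

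Methionine and threonine were the amino acids for which both enzymes passed the test in opposite directions, *MARS2* lower with *MARS* higher, and *TARS2* higher with *TARS* lower. Both enzymes were higher for leucine and valine, by the CPM as deposited, and all of these except *VARS* turned negative after scaling to the reference genes. The ratio for phenylalanine changed least, by 0.0037. The changes for asparagine, glutamate, leucine and isoleucine, of −0.05, −0.05, −0.06 and 0.06, were also within the spread of the replicates.

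**Figure D4:**
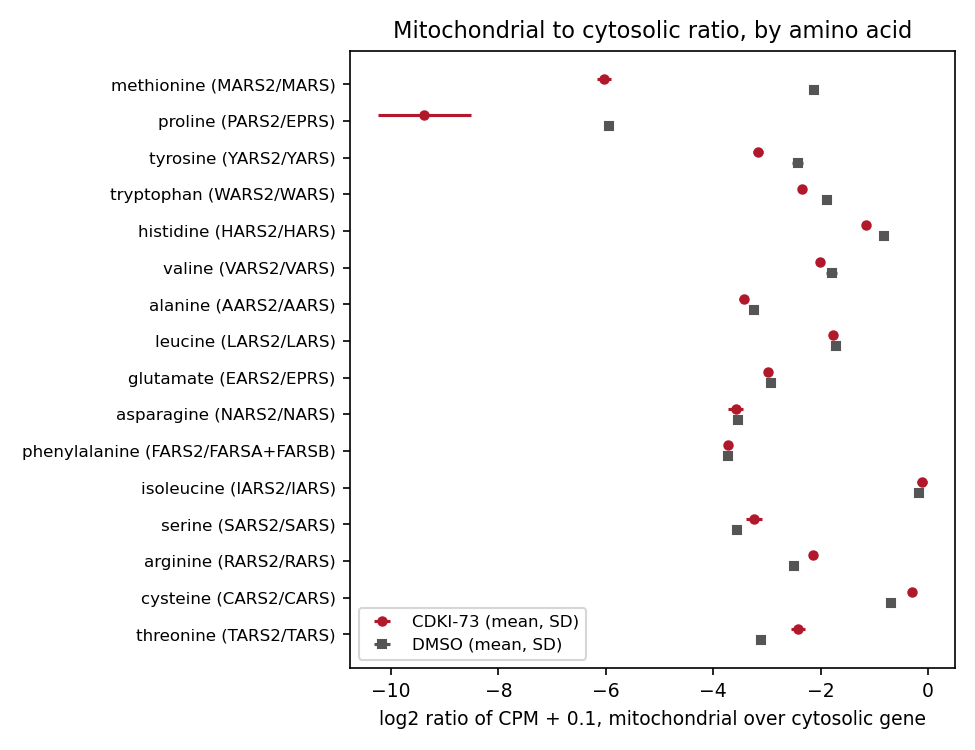
Log2 ratio of the mitochondrial to the cytosolic synthetase gene (CPM + 0.1) for 16 amino acids, mean and SD of 3 samples, CDKI-73 (red circles) above DMSO (grey squares), ordered by the change. The ratios for methionine and proline changed by −3.92 and −3.43 with CDKI-73, and that for threonine by 0.67.

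Per kilobase of the canonical transcript, mitochondrial synthetases were the less abundant class in both groups. Their median level was 16.8 CPM per kb with CDKI-73 and 17.1 CPM per kb with DMSO, and that of the cytosolic members was 75.9 and 72.3 CPM per kb. *PARS2* was the lowest, at 0.456 CPM per kb with CDKI-73 and 4.37 with DMSO, and *NARS*, for asparagine, the highest, at 222 and 195.9. *IARS2* was the highest mitochondrial member, at 113 and 99.4. *MARS2* was at 0.840 CPM per kb with CDKI-73 and at 12.1 with DMSO. Summed over the class, mitochondrial members took 1144, 1154 and 1142 CPM with CDKI-73, against 1111, 1079 and 1091 with DMSO, so the loss of *MARS2* and *PARS2* did not show in the total. The cytosolic sums were 5295, 5335 and 4985 CPM with CDKI-73 and 4875, 4954 and 5026 with DMSO, and these groups overlapped through CDKI-73 replicate 3.

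**Figure D5:**
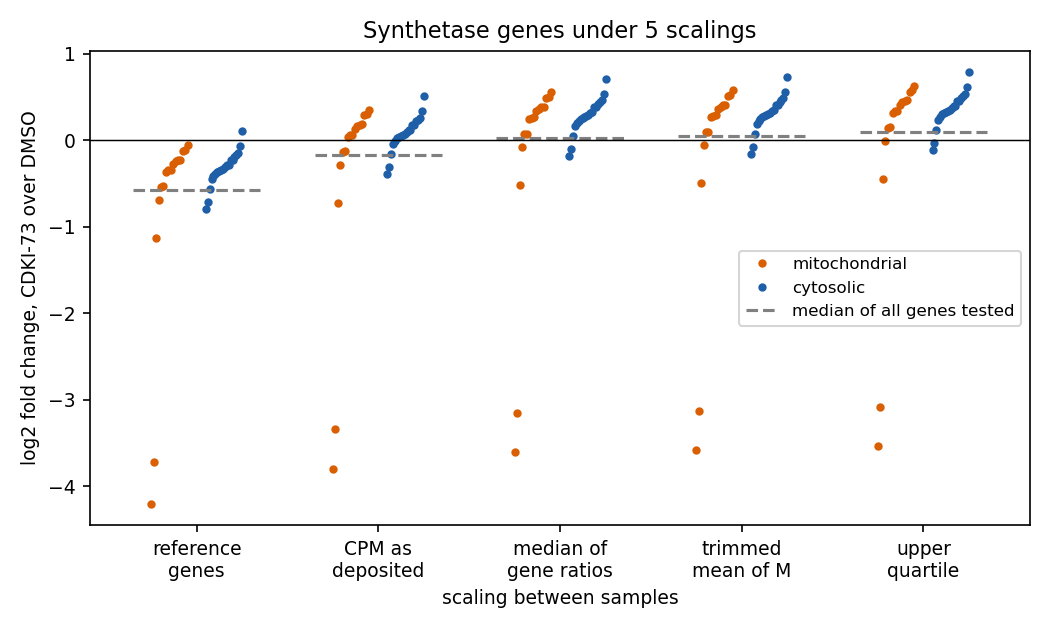
Log2 fold change (CDKI-73 over DMSO) of 36 synthetase genes under 5 scalings of the samples, mitochondrial (orange) left of cytosolic (blue), each point a gene and the dashed lines the median of all genes tested. *MARS2* and *PARS2* stay below −3 under all 5, and the bulk of both classes moves across 0 with the scaling.

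The 8 synthetases of the cytosolic multisynthetase complex (*EPRS*, *IARS*, *LARS*, *MARS*, *QARS*, *RARS*, *KARS* and *DARS*) had a median log2 fold change of 0.15, with 5 higher and *RARS* lower. Of all genes tested, 24.2% were higher and 48.2% lower. After scaling to the reference genes 7 of the 8 were lower, as were 9882 of the 13373 genes tested. The complex is held together by 3 scaffold proteins. *EEF1E1* (−0.31) and *AIMP2* (−0.22) were lower, and *AIMP1* did not pass (0.01). Neither of those falls passed by the trimmed mean of M-values, and *AIMP2* turned positive by that scaling and by the upper quartile.

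Genes that act beside the synthetases were read from lists written from general knowledge. In the CPM as deposited, their counts stand against 48.2% lower and 24.2% higher of all genes tested. By the trimmed mean of M-values, they stand against 5161 lower and 5362 higher of the 13373 genes. With the reference genes, they stand against 9882 lower and 395 higher. Of 4 measured genes for modification of mitochondrial aminoacyl-tRNAs and their products, 3 were lower. The count was 1 by the trimmed mean of M-values, without CDKI-73 replicate 2 and without DMSO replicate 1, since *MTFMT* and *GATC* then did not pass. *QRSL1*, the catalytic subunit of the complex that makes mitochondrial glutaminyl-tRNA from the misacylated product of *EARS2*, had 24.6, 23.8 and 22.5 CPM with CDKI-73, against 41.2, 43.9 and 44.2 CPM with DMSO (log2 fold change −0.87, limma adjusted p = 2.4e-06). *MTFMT*, which formylates the methionyl-tRNA made by *MARS2*, had a log2 fold change of −0.19, *GATC* −0.13 and *PDF*, which did not pass, 0.06. *MTFMT* and *GATC* turned positive by the trimmed mean of M-values, the median of gene ratios and the upper quartile. Of 7 genes of the selenocysteine tRNA pathway, 3 were lower and 4 did not pass, and those 4 were higher by the trimmed mean of M-values. The lower ones were *PSTK* (−0.85), *SEPHS2* (−0.59) and *SEPSECS* (−0.56), which encode the kinase, the selenophosphate donor enzyme and the final synthase that build selenocysteine on its tRNA.

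Of 11 genes for mitochondrial tRNA processing, 7 were lower and 2 were higher, and 10 of the 11 were lower with the reference genes. One of the 2 rises, that of *KIAA0391* (0.18), did not pass without CDKI-73 replicate 1, CDKI-73 replicate 2 or DMSO replicate 1. *TRMT5*, a tRNA methyltransferase gene, had 9.31, 8.90 and 5.66 CPM with CDKI-73, against 42.5, 41.4 and 40.7 CPM with DMSO (log2 fold change −2.40), and *PUS1*, a pseudouridine synthase gene, −1.23. *TRMT10C* (−0.89) and *HSD17B10* (0.54), which encode subunits of mitochondrial RNase P, went opposite ways, although the rise of *HSD17B10* did not hold with the reference genes. Of 24 genes for tRNA end processing, ligation and export, 13 were lower and 1 (*C14orf166*, 0.17) was higher. Of the 13, 8 were called lower at 2-fold, where 22.3% of all genes tested were. By the trimmed mean of M-values 11 of the 24 were lower and 11 higher. *C14orf166* turned negative with the reference genes and did not pass without CDKI-73 replicate 1 or DMSO replicate 1. The largest falls were those of *RPP38* (−4.00) and *RPP14* (−2.51), subunits of nuclear RNase P, of *CLP1* (−3.50), an RNA kinase, and of *ELAC1* (−2.32). *XPOT*, the nuclear export receptor for tRNA, had a log2 fold change of −0.20, which turned positive by the trimmed mean of M-values and the upper quartile and did not pass without DMSO replicate 2 or DMSO replicate 3 (limma adjusted p = 0.12 and 0.11).

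Elongation factors take the charged tRNAs to the ribosome. Of 11 cytosolic elongation and release factor genes, 7 were higher and 2 lower, with a median of 0.26, led by *EEF1D* (0.49) and *EEF1G* (0.48). *GSPT2*, a release factor gene with a close relative in *GSPT1*, which did not pass, fell to 2.20 ± 0.78 CPM with CDKI-73, against 23.3 ± 1.91 CPM with DMSO (SD, n = 3 each, log2 fold change −3.40), and *ETF1* was lower at −0.15. *ETF1* did not pass without CDKI-73 replicate 1, DMSO replicate 1 or DMSO replicate 2, which left 1 lower, and it turned positive by the trimmed mean of M-values, the median of gene ratios and the upper quartile. Of 9 mitochondrial factor genes, 4 were higher, led by *TUFM* (0.49), and 2 were lower (*MTRF1*, −0.44, and *MTIF2*, −0.30). With the reference genes 6 of the 11 and 7 of the 9 were lower, and the rest did not pass. Of 7 synthetase relatives and editing factors, 2 were lower (*PTRH2*, −1.40, and *DTWD1*, −0.95) and 3 were higher, *PTRHD1* (0.55) and *DTD1* (0.35) among them, and with the reference genes 4 were lower, none of the rises passed and *DTD1* turned negative. *TARSL2*, a further threonyl-tRNA synthetase gene outside the naming rule, did not pass (−0.07).

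Of 26 genes of amino acid synthesis and the ATF4 response, 16 were lower (10 by the trimmed mean of M-values). Of these 16, 8 were called lower at 2-fold, where 22.3% of all genes tested were. Another 6 of the 26 were higher (9 by the trimmed mean of M-values). The higher ones were *CBS* (0.74), *NUPR1* (0.41), *PYCR1* (0.41), *PHGDH* (0.40), *SHMT2* (0.39) and *ALDH18A1* (0.26), and all but *CBS* and *NUPR1* turned negative with the reference genes. *PHGDH*, *SHMT2*, *PYCR1* and *ALDH18A1* encode enzymes of serine, glycine and proline synthesis. *ATF4* itself had a log2 fold change of −0.15 (limma adjusted p = 0.035), which turned positive by the trimmed mean of M-values, the median of gene ratios and the upper quartile. Leaving out any single sample other than CDKI-73 replicate 3 also ended its call (limma adjusted p between 0.059 and 0.12). The largest falls were those of *CEBPB* (−3.54), *DDIT3* (−3.40) and *CHAC1* (−3.10). *ASNS*, asparagine synthetase, and *PSAT1*, of serine synthesis, did not pass (0.09 and 0.03).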

How the data were processed

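RNA from 6 LNCaP samples was sequenced. The deposited values are CPM per gene and sample, which the authors obtained by quality control in FastQC, mapping and gene counting in STAR against hg38, and scaling to counted reads in edgeR 3.3 under R 3.2.3, per the submitters' processing notes. Each column summed to the same total within the rounding to 2 decimals, so no further scaling factor had been applied. For its own differential expression the paper used counts scaled by the trimmed mean of M-values, which is an alternative setting here. CPM keeps no total RNA per cell. For the strand column counted and the gene annotation, the sources used here give nothing. No count model was used, since the table holds no counts and rounding to 2 decimals was coarse beside the worth of a single read.

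Values were analysed as log2(CPM + 0.1) with limma 3.58.1 (R 4.3.3, intensity trend) in genes with a mean of at least 0.5 CPM, 3 samples against 3, with Benjamini-Hochberg adjustment over all genes. The script was tested on simulated data in which only a small part of the genes changed. That test does not cover the choice of scaling in these data. Fold changes on this scale understate the change of low genes. Gene structures came from GENCODE release 44 and promoters from RefSeq (GRCh38.p14), where 30 of the 37 members were matched.

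All 6 values are given for the 5 lowest and 5 highest log2 fold changes of each class, for members called at 2-fold and for pairs that passed in opposite directions. In each gene list up to 4 of the largest changes that passed, and all members of counts of 5 or fewer, may be named. A few genes enter the counts and medians but are not reported here by name or plotted. The members and lists were chosen with earlier results of these data known. Alternatives were other pseudocounts (0.01 and 1 CPM), filters, scalings and variance models, a replicate block, and leaving out each sample. The samples are labelled as separate replicates of 1 cell line, and p-values measure the spread between them.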

Additional observations from a re-analysis of the deposited data

How the results depend on the processing

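The falls of *MARS2*, *PARS2* and *YARS2* kept their direction and passed in limma under all 17 alternatives. Other pseudocounts, filters and variance models moved no count or median of the synthetases by over 1.5 times, and scaling did. By the trimmed mean of M-values, 1 cytosolic synthetase was lower, 17 cytosolic and 11 mitochondrial synthetases were higher, and the medians were 0.31 (cytosolic) and 0.29 (mitochondrial). By the median of gene ratios, 17 and 11 were higher, with medians of 0.29 and 0.26. By the upper quartile, 18 and 13 were higher, with medians of 0.36 and 0.34, and 0 cytosolic synthetases were lower in limma (0 by unadjusted p). With the reference genes, 17 cytosolic and 13 mitochondrial synthetases were lower, 0 of either class were higher in limma (0 by unadjusted p), the medians turned to −0.32 and −0.34, and *YARS2* became the third member called at 2-fold. Each scaling moved the values of all genes alike, by 0.22, 0.20, 0.27 and −0.40 at the median.

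Among the members named here, these turned negative with the reference genes: *YARS* (−0.39), *EARS2* (−0.37), *FARSB* (−0.37), *HARS* (−0.36), *RARS2* (−0.35), *AARS* (−0.34), *FARS2* (−0.34), *FARSA* (−0.33), *EPRS* (−0.32), *MARS* (−0.29), *IARS* (−0.29), *NARS2* (−0.28), *SARS2* (−0.24), *IARS2*, *NARS*, *DARS* and *LARS2* (each −0.23), *QARS* (−0.19), *LARS* (−0.17), *KARS* (−0.15), *TARS2* (−0.12), *VARS2* (−0.11), *WARS* (−0.072) and *CARS2* (−0.054). By the trimmed mean of M-values, the median of gene ratios and the upper quartile these turned positive: *SARS* (0.071, 0.046 and 0.12), *WARS2* (0.091, 0.067 and 0.14), *CARS* (0.18, 0.16 and 0.23), *AARS2* (0.098, 0.073 and 0.15) and *GARS* (0.22, 0.19 and 0.27).

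Leaving out 1 sample at a time gave 3 lower and 6 to 10 higher cytosolic members, 4 lower and 5 to 7 higher mitochondrial members, medians of 0.068 to 0.109 and 0.056 to 0.098, a median ratio change of −0.086 to −0.025, and 2 members called at 2-fold each time. Signs turned for values near 0, in *YARS* (range −0.0025, without DMSO replicate 1, to 0.035), *EARS2* (range −0.0020, without CDKI-73 replicate 1, to 0.091) and *GARS* (range −0.031 to 0.028, positive without CDKI-73 replicate 3 or DMSO replicate 3). *MARS*, *NARS* and *LARS2* did not pass without some of the samples, and *EPRS*, *IARS*, *NARS2* and *SARS2* passed without 1 CDKI-73 sample each. No pairing by replicate number was seen. Same-numbered samples deviated together by r of −0.30, 0.11 and −0.23, and every sample correlated best with a sample of another number. With 3 samples per group these correlations depend on each other, so they cannot exclude a pairing. A replicate block left 7 cytosolic members higher, *MARS* (adjusted p = 0.093 from limma) not passing, and no other call of a synthetase changed. Depth limits *PARS2* most, at about 17 reads in its lowest sample.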
